A study of Mus musculus with 3 samples.

Results

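Neutrophils were taken from scRNA-Seq libraries of whole lung as the cells that carried at least 20 UMIs of the calcium-binding protein genes *S100a8* and *S100a9* together, at least 2 UMIs of *Retnlg*, *Csf3r*, and *Cxcr2* together, and no UMI of the B cell gene *Cd79a*, the endothelial gene *Cdh5*, or the epithelial gene *Epcam*. A UMI is a random tag put on each captured transcript, so that 1 UMI stands for 1 molecule. Of 9644 deposited cells, 7642 showed 200 or more genes with no more than 20% of their UMIs from mitochondrial genes, and 351 of these met the rule. The lungs came from 3 C57BL/6 pups of postnatal day 14 (P14) that had been held in room air (RA) since day 1, and the labels give them no genetic change or other treatment. The design has this single condition, the numbered mice 2, 3, and 4 are its replicates, and whole lung was dissociated, so that cells still in lung vessels and cells in the tissue were pooled. The libraries held 3034, 3135, and 3475 deposited cells and totals of 23744510, 22476491, and 25192427 UMIs.

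Neutrophils are short-lived granulocytes that are made in the bone marrow. While they mature they fill their granules in a fixed order. Transcripts of primary granule proteins such as myeloperoxidase come first, then those of secondary granule proteins such as lactoferrin, and then those of gelatinase granules, and most of these transcripts are lost before the cell enters the blood. G-CSF drives their production through the receptor encoded by *Csf3r*. CXCR2 draws them out of the marrow and into tissue, and CXCR4 holds them in the marrow and takes part in the return of aged cells. Mature neutrophils are known for a small RNA content and a condensed nucleus, and in the lung a large pool of them is held in the capillaries.

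The 351 cells were 68 in mouse 2, 162 in mouse 3, and 121 in mouse 4. They made up 2.85% of the kept cells in mouse 2 (2.22% to 3.60%), 6.23% in mouse 3 (5.33% to 7.23%), and 4.56% in mouse 4 (3.80% to 5.42%), or 4.55% ± 1.69% (mean ± SD, n = 3 mice). The bounds are exact 95% binomial intervals, which cover counting error alone. Of the immune cells, taken as the neutrophils and all other kept cells with at least 1 UMI of *Ptprc*, the gene of the leukocyte antigen CD45, neutrophils were 9.97%, 11.4%, and 13.4%, or 11.6% ± 1.74%. The mice thus stood in a different order in the 2 shares, and the intervals of the 3 mice overlapped for the share of immune cells. With a stricter filter of 500 genes and 10% mitochondrial UMIs, the share of immune cells was 19.8%.

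Because UMIs of 8 genes chose the cells, the levels of these genes are given as a description. *S100a9* was at 67539, 54158, and 62858 CPM (UMIs of a gene per 1000000 UMIs of the set) in the neutrophils of mice 2, 3, and 4, and *S100a8* at 44919, 33871, and 39533 CPM. These 2 genes alone held 5.96% and 3.79% of all neutrophil UMIs. *Retnlg*, a resistin-like gene of neutrophils, was at 4824, 6907, and 7158 CPM, *Csf3r* at 1825, 2064, and 1827 CPM, and *Cxcr2* at 413, 535, and 464 CPM. In the other immune cells the same 5 genes were at 522, 384, 51.6, 21.9, and 9.48 CPM (means of 3 mice, in the order *S100a9*, *S100a8*, *Retnlg*, *Csf3r*, *Cxcr2*). A *Csf3r* UMI was found in 96.6% of the neutrophils and 4.82% of the other immune cells, a *Retnlg* UMI in 75.8% and 2.26%, and a *Cxcr2* UMI in 65.5% and 3.24%. *Ly6g*, the usual surface marker of mouse neutrophils, was not part of the rule and was at 86.3 ± 13.8 CPM in neutrophils against 1.04 ± 0.958 CPM in the other immune cells. *Ptprc* itself had a UMI in 329 of the 351 cells.

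The rule has sharp limits on a continuous measure. Just inside the S100 minimum lay 21 cells with 20 to 29 UMIs, and just outside it lay 27 cells with 10 to 19 UMIs that met the other criteria, with medians of 1723 and 1309 UMIs per cell. Another 30 cells had 2 or 3 UMIs of *Retnlg*, *Csf3r*, and *Cxcr2*, and 13 cells with enough S100 UMIs had 0 or 1. A further 23 cells met both minimums but carried a UMI of *Cd79a*, *Cdh5*, or *Epcam*. No cell barcode of a neutrophil occurred in a second library, and the deposited libraries shared 5, 2, and 5 barcodes in the 3 pairs.

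Neutrophils were compared with 2 sets of cells. The first set, all other immune cells, held 614, 1261, and 780 cells (2655 in all). It is a mixed set, in which 67.8% of the cells carried a *Cd79a* UMI and 14.0% carried a UMI of *Epcam*, *Cdh5*, or the collagen gene *Col1a2*. It also held 42 cells that reached 10 S100 UMIs and 2 UMIs of *Retnlg*, *Csf3r*, and *Cxcr2*. The second set, the nearest myeloid cells, held *Ptprc*-positive cells outside the rule with at least 1 UMI of *Csf1r*, the receptor gene of macrophage colony-stimulating factor, and without *Cd79a*, *Cdh5*, or *Epcam*. These Csf1r+ mononuclear phagocytes were 44, 57, and 57 cells (158 in all). UMIs were summed per mouse and set and compared with edgeR's quasi-likelihood test. Since neutrophils were picked by their own UMIs, transcripts that accompany the 8 rule genes from cell to cell were bound to differ, and both comparisons share the neutrophil sums. The adjusted p-values below set a difference against the spread between mice, and are not independent evidence for the choice of cells.

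Per cell, neutrophils held about as much RNA in each mouse and less than the compared cells. Their median was 2340, 2317, and 2153 UMIs, against 4528, 4231, and 4308 in the other immune cells and 3522, 4437, and 4107 in the Csf1r+ cells. The median number of detected genes was 941.5, 933.5, and 887 in neutrophils, and 1828, 1823, and 1808 in the other immune cells. Both measures are tied to the rule, which asks for a minimum of UMIs. The make-up of the RNA differed as well. Ribosomal protein genes gave 3.22%, 3.48%, and 3.31% of the neutrophil UMIs, against 19.2%, 16.9%, and 17.4% in the other immune cells and 15.0%, 16.0%, and 15.4% in the Csf1r+ cells. Genes of the mitochondrial genome gave 1.29%, 1.89%, and 1.48%, against 9.21%, 9.68%, and 9.37% and against 8.90%, 8.19%, and 8.25%. This share was itself limited to 20% per cell when cells were chosen, and without a filter it was 2.20%, 3.37%, and 1.91%, against 11.8%, 12.2%, and 11.8% and against 10.9%, 14.7%, and 11.9%. In all 4 measures and both comparisons the groups did not overlap (exact 2-sided permutation test, p = 0.1, the smallest p that 3 mice against 3 allow).

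**Figure D1:**
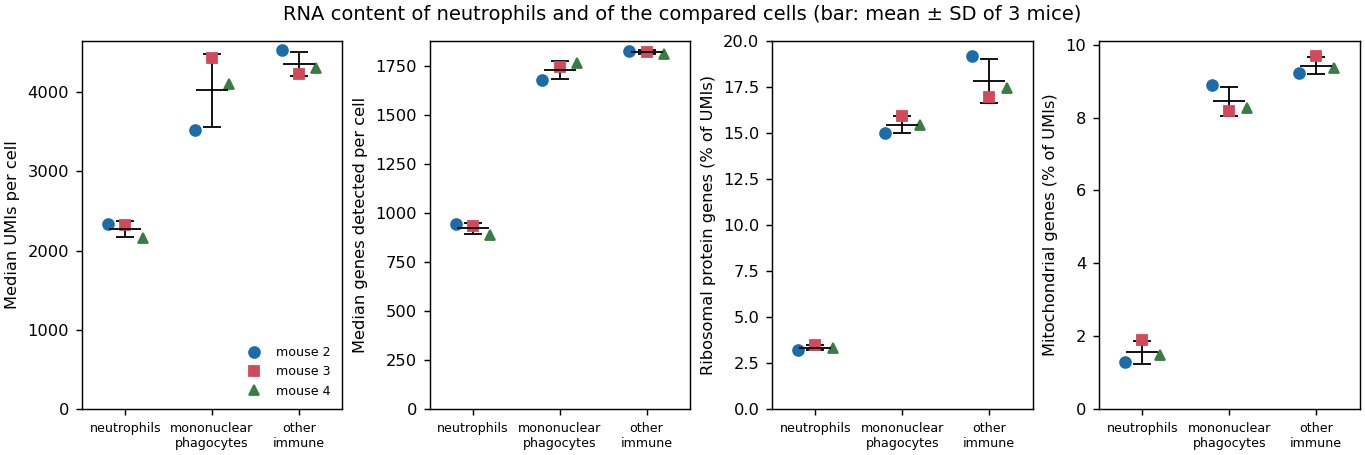
Median UMIs per cell, median genes detected per cell, and the percentages of UMIs from ribosomal protein genes and from mitochondrial genes, for neutrophils, mononuclear phagocytes, and other immune cells, with 1 point per mouse and bars for mean ± SD (n = 3). Every neutrophil point lies below every point of the compared cells, with ribosomal shares of 3.22% to 3.48% against at least 15.0%.

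Gene by gene, the ribosomal difference was spread over the family. Of 83 ribosomal protein genes tested against the other immune cells, 78 fell and 1, *Rpl3l*, rose, with a median log2 fold change of −1.70, and 78 of 81 fell against the Csf1r+ cells, with a median of −1.80. All 13 mitochondrial genes tested fell against the other immune cells (median −1.87), and all 12 tested fell against the Csf1r+ cells (median −1.97). Over all 10693 genes tested against the other immune cells, 22.2% were higher and 31.2% lower at an adjusted p under 0.05 (2375 and 3332 genes, 53.4% in either direction), with a median log2 fold change of −0.48. By CPM, 14.6% of these genes were higher and 62.9% lower with no overlap between the 3 mice of each set. Against the Csf1r+ cells, 31.5% of 4540 genes were higher and 32.8% lower (1429 and 1488 genes, 64.3% in either direction), with a median of −0.06, and 23.0% were higher and 49.6% lower in CPM with no overlap. The fold changes here use TMM factors, which centre the bulk of the genes. Without them the medians were −1.26 and −0.66, and the split of higher and lower genes was 1518 and 6120 against the other immune cells and 930 and 2219 against the Csf1r+ cells. Without mouse 3, which holds 162 of the 351 cells, 2157 genes were lower than in the other immune cells. The count of each gene list below is to be read beside the shares over all genes tested.

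After *S100a9* and *S100a8*, the transcripts with the highest mean levels in neutrophils were *Malat1*, a nuclear long noncoding RNA, at 18511 CPM and *Tmsb4x*, the gene of an actin-binding thymosin, at 16871 CPM. The inflammation genes *Il1b* and *Cxcl2* came next, and *Stfa1* and BC100530 of the stefin A protease inhibitors were also among the 10 highest, with *Fth1* and *Actb*. *Il1b*, which encodes interleukin-1β, was at 15243, 15063, and 16458 CPM in mice 2, 3, and 4, and at 275, 161, and 139 CPM in the other immune cells. The chemokine gene *Cxcl2*, whose product is itself a ligand of CXCR2, was at 14694, 12743, and 12065 CPM, against 269, 123, and 150 CPM. The lowest neutrophil value of each gene was far above the highest value of the other immune cells, and the 3 mice lay close together. Log2 fold changes were 7.11 for *Il1b* (SE 0.34, adjusted p = 6.11e-09) and 6.95 for *Cxcl2* (SE 0.36, adjusted p = 1.36e-08). In the Csf1r+ cells *Il1b* was at 553, 165, and 498 CPM and *Cxcl2* at 633, 92.7, and 358 CPM, and neutrophils were higher by 5.80 (SE 0.39, adjusted p = 1.06e-07) and 5.72 (SE 0.53, adjusted p = 1.39e-06). An *Il1b* UMI was found in 94.6% of the neutrophils and 6.46% of the other immune cells (means of 3 mice), and in 93.1% and 3.29% when each cell was thinned to 1000 UMIs. These levels are shares of 3′-end tags, 1 per captured transcript, and were not divided by transcript length.

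Of 16 tested genes of a list of cytokines and inflammatory mediators, 15 rose against the other immune cells, with a median log2 fold change of 5.69, beside −0.48 over all genes tested. The cyclooxygenase gene *Ptgs2* was at 3917, 3495, and 3451 CPM, against 66.8, 54.7, and 52.2 CPM. *Nlrp3*, the sensor of the inflammasome that releases active interleukin-1β, was at 1076, 1123, and 1413 CPM, against 31.0, 23.0, and 14.0 CPM. Both genes were at about the same level in every mouse, with log2 fold changes of 6.74 and 6.51. The brakes on interleukin-1 were high too, with *Il1r2*, the decoy receptor, at 2667, 1642, and 1780 CPM (log2 fold change 7.31, SE 0.34, adjusted p = 5.28e-09) and *Il1rn*, the receptor antagonist, at 983, 1045, and 1096 CPM (6.03, SE 0.23, adjusted p = 1.18e-09). The chemokine genes *Ccl3* and *Ccl4* rose by 4.71 and 4.87, the cytokine gene *Osm* by 6.48, the growth factor gene *Vegfa* by 4.10, and *Hdc*, which encodes the enzyme that makes histamine, by 5.77. *Tnf* rose by 2.96 (SE 0.49, adjusted p = 3.63e-04) although its groups overlapped, since mouse 2 had 5.43 CPM in neutrophils where mice 3 and 4 had 118 and 96.9 CPM. *Tgfb1* was the 1 tested member that did not pass (log2 fold change −0.19, SE 0.14, adjusted p = 0.291), but it was called lower under DESeq2 (−0.36, adjusted p = 0.0479), without TMM (−0.96, adjusted p = 1.04e-04), and without *Cdh5*-, *Epcam*-, or *Col1a2*-positive cells in the compared set (−0.38, adjusted p = 0.0313). Its sign turned without *Cd79a*-positive cells (0.26) and at 500 genes and 10% mitochondrial UMIs (0.025), where it did not pass. Against the Csf1r+ cells, 12 of 16 members rose, 3 did not pass, and *Tgfb1* fell by 1.05 on the log2 scale (SE 0.19, adjusted p = 4.09e-04), with a list median of 3.87 beside −0.06 over all genes tested.

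**Figure D2:**
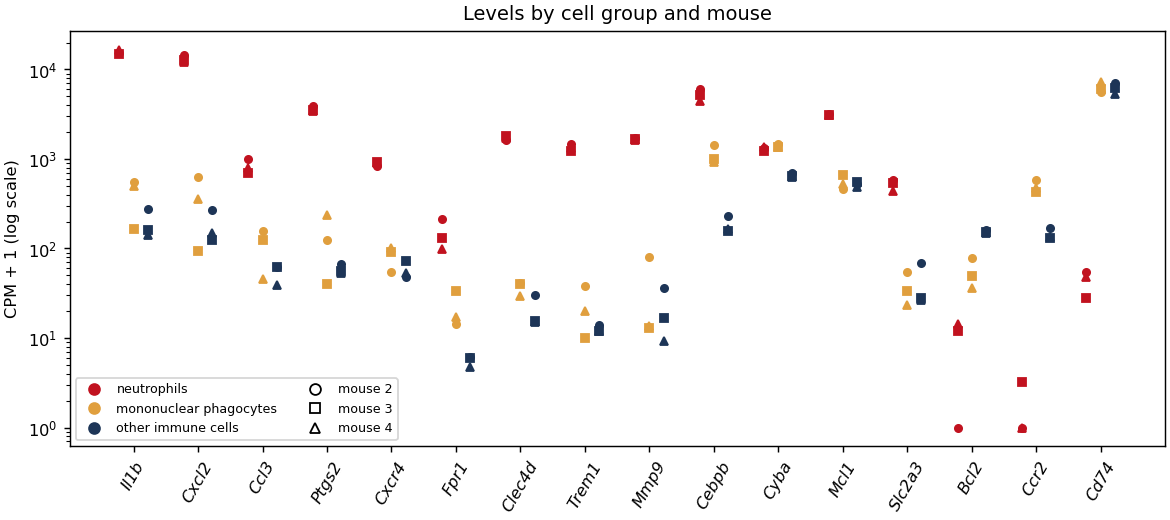
Levels of 16 genes in CPM + 1 (log axis) in neutrophils, mononuclear phagocytes, and other immune cells, with 1 symbol per mouse, where a point at 1 stands for no UMI. *Il1b* and *Cxcl2* lie at 12065 CPM or more in the neutrophils of every mouse, *Cyba* lies at about the same height in neutrophils and mononuclear phagocytes, and *Ccr2* lies near the bottom in neutrophils.

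Among the genes named by their fold change alone, without the lists, the stefin A cluster on chromosome 16 recurred. *Stfa2* (chr16:36403992-36408457 on GRCm38) was at 5139, 4405, and 4393 CPM in neutrophils and at 24.1, 30.4, and 17.9 CPM in the other immune cells, a log2 fold change of 8.35 (SE 0.27, adjusted p = 6.41e-10). *Stfa2l1*, Gm5416, and 2010005H15Rik of the same cluster were among the 10 genes with the largest increase against the other immune cells, and *Stfa1*, *Stfa3*, and BC100530 among the 10 against the Csf1r+ cells. These genes are near copies of each other, so that the split of reads between them is uncertain, and values of single members are less certain than their sum. The other 6 leading genes against the other immune cells were *Ceacam10*, *Prok2*, *Asprv1*, *Scrg1*, 9830107B12Rik, and *Rhov*. *Prok2*, the gene of the secreted peptide prokineticin 2, was at 59.8, 178, and 194 CPM against 1.87, 0, and 1.03 CPM, and its groups did not overlap. *Il1f9*, an interleukin-1 family gene, led with *Lcn2*, *Camp*, *Ngp*, *Ltf*, *Stfa2*, and *Asprv1* against the Csf1r+ cells, where no *Il1f9* UMI was found (at least 76.4-fold higher, from a floor of 3 UMIs over the set).

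Granule genes were split by granule type. None of the transcripts of the primary granule enzymes was seen in quantity. *Mpo* and *Elane*, the genes of myeloperoxidase and neutrophil elastase, had no UMI among 934043 UMIs of 351 cells, which allows up to 3.21 CPM and up to 0.855% of cells with a UMI (counting error only). Of the 8 genes of this list 6 were too low to be tested. These values cover only cells that met the rule, which asked for UMIs of *Retnlg*, *Csf3r*, and *Cxcr2*. In the other immune cells of mouse 3 each of the 8 genes had a UMI, and in those of mice 2 and 4 all but 2 did. *Ctsc*, which encodes the protease that activates the granule enzymes, fell against both sets (log2 fold changes −2.26 and −3.84). *Serpinb1a*, an inhibitor of these enzymes, fell by 0.57 on the log2 scale against the other immune cells (SE 0.19, adjusted p = 0.025), which was not kept without mouse 2 (adjusted p = 0.0646) or mouse 3 (adjusted p = 0.140). It was also lost at 500 genes and 10% mitochondrial UMIs (−0.12, adjusted p = 0.627, edgeR) and at 50 or more S100 UMIs (−0.49, adjusted p = 0.0559). When the *Cd79a*-positive cells were left out of the other immune cells, *Serpinb1a* was higher in neutrophils, at 0.88 (adjusted p = 0.0124). It also rose against the Csf1r+ cells (0.84, SE 0.32, adjusted p = 0.0367, edgeR), a call lost without mouse 3 (0.86, adjusted p = 0.110), without mouse 4 (0.60, adjusted p = 0.235), without TMM (0.25), with the mouse as a block (0.88, adjusted p = 0.0545), and under DESeq2 (0.78, adjusted p = 0.182). Of its UMIs, 34 lay in the 18 cells rich in secondary granule transcripts that are described further on and 9 in the 327 cells poor in them.

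Secondary granule genes went the other way. Of 12 tested, 11 rose against the other immune cells, with a median log2 fold change of 6.30, and 10 of 11 rose against the Csf1r+ cells, with a median of 5.70, or 5.57 with the 2 genes without a UMI in the Csf1r+ cells set to their lower bound. *Camp*, the gene of the antimicrobial cathelicidin peptide, was at 7165, 2082, and 4042 CPM in neutrophils and at 10.4, 185, and 77.2 CPM in the other immune cells (log2 fold change 6.40, SE 0.83, adjusted p = 4.88e-05). *Ltf*, which encodes the iron-binding protein lactoferrin, was at 2711, 1028, and 1774 CPM against 0, 20.8, and 24.2 CPM (7.66, SE 0.80, adjusted p = 7.23e-06). In both genes mouse 2 was highest and mouse 3 lowest. In mouse 2, 1 cell marked as a possible doublet held 748 of the 1319 *Camp* UMIs and 205 of the 499 *Ltf* UMIs. Without marked doublets *Camp* was at 3343, 2082, and 4360 CPM and *Ltf* at 1721, 1028, and 1913 CPM, with mouse 4 highest. The rise of *Camp* did not hold for most neutrophils. In the 327 cells poor in secondary granule transcripts, *Camp* was at 6.74, 10.0, and 0 CPM, from 5 UMIs in all. In every mouse this was below the other immune cells, although these 327 cells were chosen in part by few *Camp* UMIs. *Ngp*, the neutrophilic granule protein gene, rose by 7.18, *Lcn2*, whose product binds bacterial siderophores, by 6.20, *Mmp8*, the neutrophil collagenase gene, by 7.54, *Cd177*, a surface glycoprotein gene, by 6.93, and *Pglyrp1*, the gene of a peptidoglycan recognition protein, by 5.50. Against the Csf1r+ cells, where no *Ltf* UMI was found, *Ltf* was at least 505-fold higher. *Chil3*, a chitinase-like gene that macrophages also express, was the exception. It was at 701, 186, and 331 CPM in neutrophils, at 1058, 175, and 759 CPM in the other immune cells (log2 fold change −0.02, SE 0.58, adjusted p = 0.98), and at 12907, 1191, and 4679 CPM in the Csf1r+ cells, against which it fell (log2 fold change −3.46, SE 0.71, adjusted p = 9.79e-04). In mouse 2 the same marked cell held 83 *Chil3* UMIs, of 312 in the neutrophils of all mice.

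Genes of gelatinase granules and secreted products rose in 10 of 11 tests against the other immune cells (median 6.41) and in 8 of 9 against the Csf1r+ cells (median 6.12). *Mmp9*, the gelatinase gene, was at 1722, 1680, and 1617 CPM against 34.8, 15.9, and 8.21 CPM in the other immune cells (log2 fold change 7.20, SE 0.45, adjusted p = 6.88e-08). In contrast with *Camp* and *Ltf*, the 3 mice nearly coincided. *Slpi*, a gene of a secreted protease inhibitor, rose by 7.11 and *Padi4*, whose enzyme citrullinates histones, by 6.41. *Cd55*, the gene of a brake on complement, fell by 2.98 on the log2 scale against the other immune cells (SE 0.25, adjusted p = 8.22e-07), and *Wfdc17* fell by 1.41 on the log2 scale against the Csf1r+ cells (SE 0.24, adjusted p = 2.72e-04). When cells with a *Cd79a* UMI were left out of the other immune cells, the log2 fold change of *Cd55* was 0.0034.

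The NADPH oxidase, which makes superoxide, is assembled from a membrane part (*Cybb*, *Cyba*) and a cytosolic part that includes *Ncf1*, *Ncf4*, and *Rac2*. These 5 genes rose against the other immune cells, by 1.76 to 2.92, and the proton channel gene *Hvcn1* fell (log2 fold change −3.47, SE 0.38, adjusted p = 1.01e-05). Without *Cd79a*-positive cells in the compared set, *Hvcn1* was at −1.14 and did not pass. *Ncf1* was at 733, 635, and 815 CPM against 142, 194, and 155 CPM. *Cybb* was at 587, 195, and 411 CPM against 163, 157, and 173 CPM, so mouse 3 came close to the other immune cells. The *Cybb* UMIs lay mostly in 18 cells rich in secondary granule transcripts, described further on, which held 252 of them where the 327 cells poor in these transcripts held 62. In those 327 cells *Cybb* was at 33.7, 97.9, and 72.2 CPM, below every value of the other immune cells. The 3 cytosolic genes also rose against the Csf1r+ cells, by 1.86 to 2.83. The membrane genes did not follow them there. *Cybb* did not pass (log2 fold change −0.22, SE 0.31, adjusted p = 0.559). *Cyba* was at 1342, 1218, and 1370 CPM against 1453, 1343, and 1348 CPM, groups that overlapped, and its log2 fold change of 0.46 (SE 0.16, adjusted p = 0.0224) was −0.15 without TMM and did not pass without mouse 3 (0.43) or mouse 4 (0.44).

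**Figure D3:**
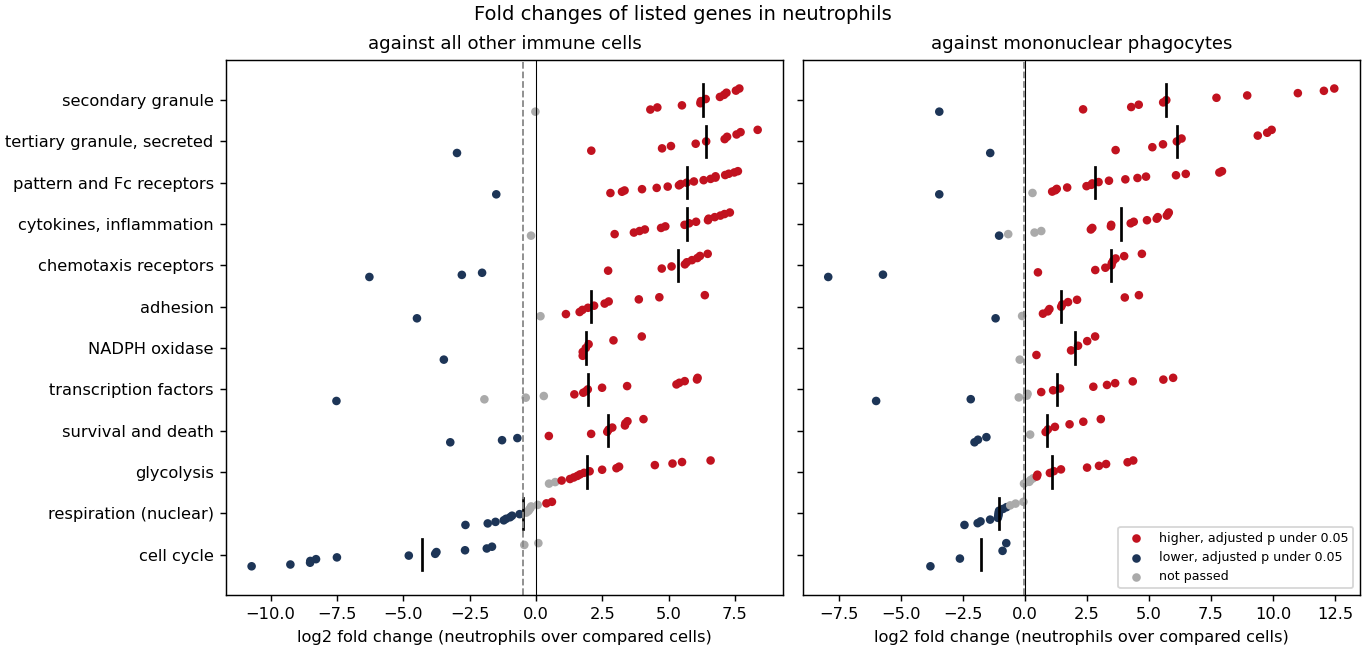
Log2 fold changes of the tested genes of 12 lists in neutrophils against all other immune cells (left) and against mononuclear phagocytes (right), with 1 point per gene, a short vertical bar at the median of a list, and a dashed line at the median of all genes tested. The medians of the secondary granule, gelatinase granule, receptor, and cytokine lists lie to the right of the dashed line in both panels, and those of the cell cycle list to its left.

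Most tested genes of receptors that guide neutrophils rose in both comparisons, while *Ccr2* and *Cx3cr1* fell in both. Of 12 chemotaxis receptor genes tested against the other immune cells, 9 rose and 3 fell (median 5.36; of the 3, *Cx3cr1* did not pass without mouse 2, at −1.72 with an adjusted p of 0.112, or mouse 4, at −1.89 with an adjusted p of 0.112), and of 11 tested against the Csf1r+ cells, 9 rose and 2 fell (median 3.48). *Cxcr4* was at 842, 928, and 912 CPM, against 47.6, 70.7, and 52.8 CPM in the other immune cells (log2 fold change 4.74, SE 0.18, adjusted p = 1.08e-09) and 53.3, 89.7, and 99.0 CPM in the Csf1r+ cells (4.00, SE 0.22, adjusted p = 2.05e-08). A *Cxcr4* UMI was found in 79.9% of the neutrophils and 19.8% of the other immune cells, and in 57.0% and 6.07% at 1000 UMIs per cell. The formyl peptide receptor genes *Fpr1* and *Fpr2*, the complement receptor gene *C5ar1*, the chemokine receptor gene *Ccr1*, and *Ccrl2*, which encodes a receptor that binds chemerin without signalling, rose by 5.68, 5.61, 6.18, 5.88, and 6.47 against the other immune cells. The monocyte receptor gene *Ccr2* had 1 UMI in all neutrophils, against 577, 425, and 473 CPM in the Csf1r+ cells (log2 fold change −7.94, SE 0.43, adjusted p = 2.05e-08), and *Cx3cr1*, the fractalkine receptor gene, had 3 UMIs, against 230, 206, and 374 CPM (−5.73, SE 0.48, adjusted p = 5.58e-07). In pooled UMIs the Csf1r+ cells were higher 456-fold for *Ccr2* (exact 95% counting interval 81.5 to 18068) and 83.8-fold for *Cx3cr1* (28.4 to 409). *Ltb4r1*, the leukotriene B4 receptor gene, rose by 0.52 against the Csf1r+ cells, which was −0.09 without TMM and did not pass without any 1 of the 3 mice (0.41 to 0.62).

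For 11 listed adhesion genes the files held 12 entries, since *Itgam* appears under 2 gene identifiers, and both of its entries rose in both comparisons. Of these 12 entries, 10 rose against the other immune cells (median 2.07), and 9 of 11 rose against the Csf1r+ cells (median 1.46). Over all genes tested, 22.2% and 31.5% rose. The integrin gene *Itgal* was at 445, 515, and 628 CPM against 159, 158, and 135 CPM in the other immune cells (log2 fold change 2.59, SE 0.16, adjusted p = 5.79e-08), with no overlap between the groups. *Pecam1*, expressed by endothelial cells and some leukocytes, fell by 4.49 on the log2 scale.

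Nearly all pattern and Fc receptor genes rose, with 18 of 19 higher than in the other immune cells (median 5.68) and 16 of 18 higher than in the Csf1r+ cells (median 2.84). *Trem1*, which encodes an amplifier of the inflammatory response, was at 1478, 1225, and 1316 CPM against 13.1, 11.0, and 11.1 CPM (log2 fold change 7.61, SE 0.20, adjusted p = 3.33e-10). *Clec4d*, a gene of a C-type lectin that senses mycobacterial lipids, was at 1635, 1787, and 1697 CPM against 29.1, 14.4, and 14.0 CPM (7.27, SE 0.32, adjusted p = 3.39e-09). For both, the 3 mice were within a narrow range in neutrophils, and the Csf1r+ cells were also low, with log2 fold changes of 6.48 and 6.09. *Cd14*, the coreceptor for lipopolysaccharide, rose by 6.77 and 4.53, *Tlr2*, the receptor for bacterial lipoproteins, by 5.39 and 2.97, and the lectin gene *Clec4e* by 6.32 and 4.05 against the first and the second set. The activating Fc receptor genes *Fcgr3* and *Fcgr4* rose by 4.00 and 4.96 against the other immune cells and by 1.09 and 1.28 against the Csf1r+ cells. *Fcgr2b*, the inhibitory Fc receptor gene, fell against both (log2 fold changes −1.50, adjusted p = 0.00686, and −3.46, adjusted p = 9.66e-06, edgeR).

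Of 15 genes of transcription factors and their regulators, 11 rose against the other immune cells (median 1.95) and 9 of 14 against the Csf1r+ cells (median 1.27). *Cebpe*, the factor of the secondary granule stage, was at 158, 79.9, and 117 CPM against 0.802, 4.88, and 1.64 CPM (log2 fold change 6.09, SE 0.46, adjusted p = 4.10e-07). *Cebpb*, which takes over in emergency granulopoiesis, was at 6090, 5231, and 4416 CPM against 232, 154, and 163 CPM (5.61, SE 0.26, adjusted p = 5.21e-09). In 3′ UMIs, *Cebpb* was thus far above *Cebpe* in the neutrophils of every mouse. The AP-1 gene *Junb* rose by 5.29, *Mxd1*, an antagonist of MYC, by 6.07, and *Spi1*, the gene of the myeloid factor PU.1, by 3.43. *Irf8*, which directs cells towards monocytes and dendritic cells, had 1 UMI in all neutrophils, against 391, 341, and 290 CPM in the other immune cells (log2 fold change −7.52, SE 0.48, adjusted p = 8.62e-08) and 113, 120, and 153 CPM in the Csf1r+ cells (−6.01, SE 0.56, adjusted p = 1.50e-06). From that 1 UMI the pooled ratios were 315 (exact 95% counting interval 56.5 to 12438) and 120.3 (21.2 to 4789).

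In genes of survival and death, 9 of 12 rose and 3 fell against the other immune cells (median 2.71), beside 22.2% and 31.2% of all genes tested. Of the 3, *Bax*, a gene of the mitochondrial death pathway, did not pass without mouse 2 (−0.53, adjusted p = 0.0831) or mouse 3 (−0.85, adjusted p = 0.0590). *Mcl1*, the BCL2-family member on which neutrophils depend, was at 3162, 3114, and 3127 CPM against 522, 548, and 483 CPM (log2 fold change 3.37, SE 0.16, adjusted p = 7.68e-09). *Bcl2* was at 0, 11.1, and 13.4 CPM against 160, 151, and 148 CPM (−3.23, SE 0.34, adjusted p = 7.06e-06). The 2 survival genes thus lay on opposite sides in every mouse, also against the Csf1r+ cells (3.06 and −1.90). *Bcl2a1b* rose by 4.05, with the reservation that its family holds near copies, and *Casp8*, a starter of the death receptor pathway, fell (log2 fold change −1.28, SE 0.29, adjusted p = 0.00351). *Cflar* rose by 0.48, which was −0.29 without TMM and did not pass without mouse 3 (0.14) or mouse 4 (0.43).

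Of 16 glycolysis and hypoxia genes, 14 rose against the other immune cells (median 1.92) and 10 of 14 against the Csf1r+ cells (median 1.08). The glucose transporter gene *Slc2a3* was at 581, 537, and 441 CPM against 67.1, 27.3, and 25.5 CPM (log2 fold change 4.48, SE 0.36, adjusted p = 5.94e-07), and *Slc16a3*, the lactate exporter gene, was at 1076, 761, and 935 CPM against 22.2, 16.0, and 11.3 CPM (6.58, SE 0.27, adjusted p = 2.40e-09). *Hk3*, a hexokinase gene of myeloid cells, rose by 5.50 and *Pygl*, which releases glucose units from glycogen, by 5.15. Against the Csf1r+ cells, the genes of the glycolytic enzymes aldolase A and enolase 1, *Aldoa* and *Eno1*, rose by 0.47 and 0.50. Without TMM *Aldoa* and *Eno1* were at −0.13 and −0.11, and neither passed without mouse 3 (0.34 and 0.49) or mouse 4 (0.47 and 0.49). Of 16 nuclear genes of mitochondrial respiration, 8 fell, 2 rose, and 6 did not pass against the other immune cells, with a median of −0.49 beside −0.48 over all genes tested, of which 31.2% were lower. The median of this list was thus close to that of all genes. The ATP synthase gene *Atp5a1* was at 92.3, 91.0, and 104 CPM against 349, 380, and 336 CPM in the other immune cells (log2 fold change −1.13, SE 0.15, adjusted p = 4.86e-05), and *Atp5b* fell by 0.62 on the log2 scale (SE 0.16, adjusted p = 0.00805). The 2 that rose, *Cox4i1* (0.39, adjusted p = 0.0285) and *Sdhb* (0.60, adjusted p = 0.0442, edgeR), were at −0.38 and −0.17 without TMM, and neither passed when any 1 mouse was left out (0.25 to 0.37 and 0.45 to 0.63). In the comparison with the Csf1r+ cells, 11 of 14 fell, with a median of −1.07 beside −0.06 over all genes tested, of which 32.8% were lower.

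Cell cycle genes were low. Of 14 tested against the other immune cells 12 fell, with a median log2 fold change of −4.30, or −2.37 with the 6 genes without a neutrophil UMI set to their bound. These 6 genes passed the count minimum through the other immune cells alone, so their values are a description only. *Top2a* and *Cdk1* had no UMI in neutrophils, and *Mki67*, the proliferation marker gene, had 2 UMIs, both in 1 cell of mouse 4, against 110, 92.1, and 105 CPM in the other immune cells (log2 fold change −4.79, SE 0.56, adjusted p = 1.82e-05), a pooled ratio of 46.9 with an exact 95% counting interval of 12.9 to 387. All 4 genes that could be tested against the Csf1r+ cells fell. Over all genes tested, 31.2% fell against the other immune cells and 32.8% against the Csf1r+ cells.

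Interferon-responsive genes rose in 10 of 12 tests against the other immune cells (median 3.12) and in 6 of 8 against the Csf1r+ cells (median 2.28). *Ifitm2*, of a family that restricts virus entry, was at 1048, 1052, and 1099 CPM against 99.98, 84.1, and 136 CPM (log2 fold change 4.10, SE 0.20, adjusted p = 6.75e-09), and *Ifitm3* fell against the Csf1r+ cells (−0.91, SE 0.17, adjusted p = 4.42e-04). *Isg15*, a ubiquitin-like protein gene induced by interferon, was at 185, 120, and 66.8 CPM against 11.5, 8.65, and 14.4 CPM. It was thus uneven between mice, and also between cells. Summed UMIs of *Ifit1*, *Ifit3*, *Isg15*, and *Rsad2* were 0 in 297 of the 351 cells and reached 5 or more in 4 cells, 2 of mouse 2 and 2 of mouse 3, with a highest value of 10. Of the 123 summed UMIs, *Isg15* held 108 and *Rsad2* 12. *Ifit1* and *Ifit3* had 2 and 1 UMIs, were too low to be tested, and are not among the tests counted above.

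In a list of genes that have been tied to aged or tissue neutrophils, 11 of 12 rose against the other immune cells (median 3.98) and 9 of 11 against the Csf1r+ cells (median 3.65). Its members include *Ly6g*, the usual neutrophil marker, and *Cxcr4*, already counted with the chemotaxis receptors. Since the compared cells are not neutrophils, these counts cannot tell an aged or tissue state from neutrophils in general. *Thbs1*, the gene of the matrix protein thrombospondin 1, was at 8121, 6239, and 6387 CPM against 286, 94.2, and 71.1 CPM (log2 fold change 6.28, SE 0.53, adjusted p = 1.01e-06). *Cd274*, the gene of PD-L1, rose by 3.22. *Siglecf*, which marks eosinophils and alveolar macrophages and has been found on some tissue neutrophils, was at 10.9, 11.1, and 10.0 CPM from 10 UMIs in all, against 3.21, 3.21, and 2.88 CPM (2.54, SE 0.48, adjusted p = 9.40e-04). Thus *Siglecf* was low in absolute terms in all 3 mice, where *Thbs1* was among the 13 most abundant transcripts. Of 9 lipid mediator genes tested against the other immune cells, 6 rose, 1 fell, and 2 did not pass (median 1.69), and of 7 tested against the Csf1r+ cells, 3 rose, 2 fell, namely *Ltc4s* (the leukotriene C4 synthase gene, −2.21) and *Pltp* (a phospholipid transfer protein gene, −2.43), and 2 did not pass (median 0.70, or 0.10 without TMM). Over all genes tested, 22.2% rose and 31.2% fell against the other immune cells, and 31.5% rose and 32.8% fell against the Csf1r+ cells. The lipid mediator counts against the Csf1r+ cells were thus near the shares over all genes. *Alox5* and *Alox5ap*, which start leukotriene synthesis, rose by 4.50 and 3.99 against the other immune cells and by 2.72 and 1.56 against the Csf1r+ cells.

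Of 9 tested genes of a list of ligands that recruit neutrophils, 7 rose against the other immune cells, 1 fell, and 1 did not pass (median 4.31). Against the Csf1r+ cells, 5 of 6 rose and 1 did not pass (median 2.38). Some members are counted in other lists as well, *Cxcl2* and *Ccl3* with the cytokines and *Anxa1* with the secondary granule genes. The members named here were high in different cells. *Cxcl15*, the gene of lungkine, was at 5221, 5217, and 4897 CPM in the *Epcam*-positive epithelial cells and at 48.9, 8.88, and 43.4 CPM in neutrophils. *Cxcl12*, the ligand gene of CXCR4, was at 678, 697, and 750 CPM in the *Cdh5*-positive endothelial cells. *Cxcl2* was below 5 CPM in the epithelial, endothelial, and stromal cells of every mouse, which left neutrophils as the set with the highest level in each mouse. *Cxcl1*, another CXCR2 ligand gene, rose in neutrophils against the other immune cells (70.6, 75.5, and 33.4 CPM against 6.42, 0.418, and 3.29 CPM, log2 fold change 5.08, SE 0.68, adjusted p = 6.08e-05). *Csf3*, the gene of G-CSF, rested on 14 UMIs in neutrophils and 14 in the other immune cells.

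Genes of other cell types were mostly lower in neutrophils. The rule removed cells with a UMI of *Cd79a*, *Cdh5*, or *Epcam* while the compared immune cells kept theirs, so the decreases of B cell, endothelial, and epithelial genes follow in part from the choice of cells and do not check it. All 7 B cell genes tested fell against the other immune cells, as did 6 of 7 T and NK cell genes, 5 of 7 dendritic cell genes, 3 of 5 endothelial genes, and 5 of 6 epithelial genes. Of 10 macrophage and monocyte genes, 5 fell, namely *C1qa*, *C1qb*, *C1qc*, *Mrc1*, and *Marco*, and 4 rose, namely *Adgre1*, *Csf1r*, *Ly6c2*, and *Cd68*, while none of the 9 tested rose against the Csf1r+ cells, where 7 fell. Over all genes tested, 31.2% fell and 22.2% rose against the other immune cells, and 32.8% fell and 31.5% rose against the Csf1r+ cells. The decrease of *C1qa* against the other immune cells did not pass without mouse 2 (adjusted p = 0.0564), nor that of *Marco* without mouse 3 (adjusted p = 0.10) or mouse 4 (adjusted p = 0.0696). *Ly6c2*, a monocyte surface antigen gene, had 80 UMIs in the 18 cells rich in secondary granule transcripts (mean 644 CPM over mice) and 22 in the 327 cells poor in them (27.2 CPM), where the other immune cells were at 63.7 CPM. Its difference from the Csf1r+ cells (log2 fold change 0.88, adjusted p = 0.118, edgeR) passed with the mouse as a block (1.08, adjusted p = 0.00224) and without mouse 2 (1.54, adjusted p = 0.0221), and that of *Adgre1* (−0.93, adjusted p = 0.0897) passed with the block (−0.99, adjusted p = 0.00636). *C1qa*, the gene of a complement subunit of tissue macrophages, had no UMI in neutrophils and was at 387, 353, and 971 CPM in the Csf1r+ cells, at least 177-fold lower in neutrophils. The class II genes *Cd74* and *H2-Aa* fell against the Csf1r+ cells (log2 fold changes −6.75 and −6.49). The 10 genes with the largest decrease against the other immune cells had no neutrophil UMI and were mostly B cell and lymphocyte genes, namely *Fcmr* (at least 79.1-fold lower), *Gzma*, *Fcrla*, *Fcer2a*, *Pou2af1*, *Cd22*, *Tnfrsf13c*, Gm8369, *Trbc1*, and *Ly86*. Those named by the same rule for the Csf1r+ cells included *C1qa*, *C1qb*, *C1qc*, *Mmp12*, *Cd209a*, *Mgl2*, *Mrc1*, *Atp6v0d2*, and *Ccl17*, genes of macrophages and dendritic cells.

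A few markers of other cells did not follow this order. *Sftpc*, the surfactant protein C gene of alveolar type 2 cells, had a UMI in 68.7% of the neutrophils, 75.3% of the Csf1r+ cells, and 72.8% of the other immune cells. It was at 0 to 9 UMIs per neutrophil, with a median of 1, and the share of neutrophils at 1000 UMIs per cell was 41.9% (mean of 3 mice). Its level was 539 ± 215 CPM in neutrophils, 345 ± 145 CPM in the Csf1r+ cells, and 8755 ± 3427 CPM in the other immune cells, and its part in the results was not tested. Of the 4 epithelial genes tested against the Csf1r+ cells, *Sftpc* (log2 fold change 1.17, SE 0.36, adjusted p = 0.0121, edgeR) and *Scgb1a1*, the club cell secretoglobin gene (0.88, adjusted p = 0.0400), rose, and *Cdh1* fell. Without TMM neither rise passed (0.55 and 0.27), and that of *Scgb1a1* was also lost without mouse 2 (1.07, adjusted p = 0.0576) and without mouse 4 (0.50, adjusted p = 0.228). All listed epithelial genes together were at 831, 413, and 1046 CPM in the neutrophils of mice 2, 3, and 4 and at 14531, 11075, and 31928 CPM in the other immune cells. Of the 5 stromal genes tested, *Col1a1*, *Col1a2*, and *Col3a1* rose against the other immune cells. *Col1a1* was at 43.5, 3724, and 46.8 CPM in neutrophils of mice 2, 3, and 4, so the increase (log2 fold change 3.92, SE 1.14, adjusted p = 0.0133) came from mouse 3. The 5 stromal genes together were at 282, 11010, and 1406 CPM in neutrophils and at 1964, 2878, and 3253 CPM in the other immune cells. In mouse 3, 1 droplet of 29044 UMIs held 1652 *Col1a1* UMIs, among 4643 stromal UMIs. Without the 3 droplets that carried 50 or more stromal UMIs, a limit set after these values had been seen, *Col1a1* was lower in neutrophils (log2 fold change −1.50), and without mouse 3 it was at −0.63. In the same comparison *Col1a2* (3.44) and *Col3a1* (2.62) were at −0.71 and −1.36 without mouse 3, at −3.57 and −2.70 without the droplets, and at 1.59 and 0.76 with the mouse as a block. Higher levels than in the Csf1r+ cells were called for 4 of the 5 stromal genes, *Col1a1* (5.36, SE 1.44, adjusted p = 0.00573, edgeR), *Col1a2*, *Col3a1*, and *Mgp*. None of these 4 calls was kept without mouse 3, where the fold changes were 0.013, 0.39, −1.07, and 1.56, and *Col1a1* was at 0.0022 without the droplets. Without mouse 4 the calls of *Col3a1* (3.55, adjusted p = 0.0629) and *Mgp* (2.22, adjusted p = 0.0714) were lost, and without mouse 2 *Eln*, the fifth gene, passed (4.03, adjusted p = 1.58e-06). With the mouse as a block *Col3a1* did not pass (2.77, adjusted p = 0.0717) and *Eln* did (2.08, adjusted p = 0.0295), and *Eln* also passed without marked doublets (2.74) and at 500 genes and 10% mitochondrial UMIs (3.70). Leaving these droplets out gave 4147 genes lower than in the other immune cells and 1606 lower than in the Csf1r+ cells. The T cell gene *Cd3d* had 53 UMIs in 43 neutrophils (12.3%), in 16.2%, 9.26%, and 14.0% of the cells of mice 2, 3, and 4. As the 1 T and NK cell gene tested against the Csf1r+ cells, it rose (adjusted p = 9.41e-06, edgeR). Whether counting used the strand is not given in the sources used here, and whether these UMIs are *Cd3d* transcripts or reads from a neighbouring gene was not tested. It had no UMI in these 158 cells, which allows a share of up to 1.90%, and a UMI in 0.256%, 1.56%, and 0.391% of the *Cd79a*-positive cells. *Cd3e*, *Cd3g*, and *Trbc2*, which T cells express along with it, had 1, 8, and 6 UMIs in the 351 neutrophils. The level of *Cd3d*, 65.2, 44.4, and 70.1 CPM, overlapped that of the other immune cells (log2 fold change 0.31, SE 0.28, adjusted p = 0.357). Without *Cd79a*-positive cells in the compared set, *Cd3d* was called lower in neutrophils (−0.68, adjusted p = 0.0374, edgeR).

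The spread of the secondary granule genes between mice led to single cells. UMIs of *Camp*, *Ngp*, and *Ltf* together were 0 in 315 of the 351 neutrophils, at most 2 in 327, between 3 and 9 in 6, and at least 10 in 18. These 18 granule-gene-high cells held 99.4% of the 8028 UMIs of the 3 genes, with 11 to 1352 UMIs each. They were 4 of 68 neutrophils in mouse 2 (5.88%, exact 95% binomial interval 1.63% to 14.4%), 6 of 162 in mouse 3 (3.70%, 1.37% to 7.89%), and 8 of 121 in mouse 4 (6.61%, 2.90% to 12.6%). The intervals of the 3 mice overlapped. Only 7 cells lay near the limit, at 3 to 20 UMIs, and 1 of the 18 was marked as a possible doublet. The high level of these genes in the pooled neutrophils thus rested on 18 of them, where 331 of the 351 cells carried an *Il1b* UMI. The 18 cells are not all cells with these transcripts, since cells outside the rule carried them too. In mouse 3 the other immune cells held 1323 *Camp* UMIs, more than the 938 of the neutrophils, and in mice 2 and 4 they held fewer than the neutrophils.

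**Figure D4:**
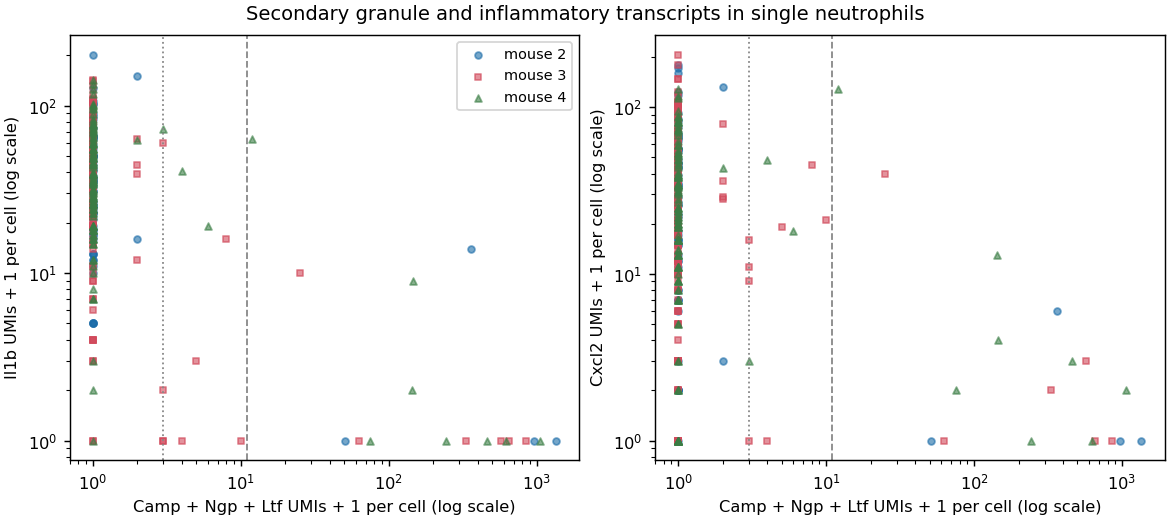
UMIs of *Il1b* (left) and *Cxcl2* (right) against summed UMIs of *Camp*, *Ngp*, and *Ltf* in each of the 351 neutrophils, with 1 added to every count, log axes, and a symbol for the mouse. A dotted line marks 2 and a dashed line 10 summed UMIs; most cells form a column at the left edge, with no UMI of the 3 genes, and the 18 cells right of the dashed line include 13 without an *Il1b* UMI.

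The promoters of *Camp*, *Ngp*, and *Ltf*, which lie near each other on chromosome 9, are shown because the summed UMIs of these genes define the 18 granule-gene-high cells. By that choice the cells are rich in them, and 16 of the 18 had an *Ltf* UMI. They are the 250 bases before and 50 bases after the start site of each gene in RefSeq (GRCm38.p6), written 5′ to 3′ on the strand of the gene, and capitals mark the letters TTGCNNAA on either strand, a form of the site that C/EBP factors bind.
Camp: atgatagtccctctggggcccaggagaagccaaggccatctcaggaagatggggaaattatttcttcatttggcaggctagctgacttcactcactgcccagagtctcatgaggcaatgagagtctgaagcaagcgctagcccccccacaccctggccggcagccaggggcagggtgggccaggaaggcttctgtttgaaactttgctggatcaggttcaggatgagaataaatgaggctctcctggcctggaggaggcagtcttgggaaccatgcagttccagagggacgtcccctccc
Ngp: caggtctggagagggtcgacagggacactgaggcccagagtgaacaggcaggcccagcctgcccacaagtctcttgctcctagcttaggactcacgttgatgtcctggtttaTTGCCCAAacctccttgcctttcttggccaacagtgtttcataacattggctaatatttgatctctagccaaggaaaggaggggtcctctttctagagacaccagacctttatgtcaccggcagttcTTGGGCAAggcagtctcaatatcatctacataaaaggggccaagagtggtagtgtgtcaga
Ltf: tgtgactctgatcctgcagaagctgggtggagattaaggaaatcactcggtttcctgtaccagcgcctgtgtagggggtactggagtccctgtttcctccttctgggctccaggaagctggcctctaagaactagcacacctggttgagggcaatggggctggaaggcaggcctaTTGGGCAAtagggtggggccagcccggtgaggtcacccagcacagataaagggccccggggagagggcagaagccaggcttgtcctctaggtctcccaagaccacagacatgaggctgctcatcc
The stretches are chr9:109849407-109849706 (minus strand), chr9:110419558-110419857 (plus strand), and chr9:111019042-111019341 (plus strand). The letters occur in *Ngp* 138 and 11 bases before the start site and in *Ltf* 75 bases before it, and they do not occur in this stretch of *Camp*. Among all 32544 promoters of the same source, 10.8% hold them. A match is a description of the sequence only.

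The 18 granule-gene-high cells differed from the 327 granule-gene-low cells of the same mice in many other transcripts. These values carry no test, since mouse 2 had only 4 high cells, and the split used *Camp*, *Ngp*, and *Ltf*. Of 2783 genes with at least 50 CPM in either group, 11.0% were higher and 36.1% lower in the high cells of every mouse than in the low cells of any mouse. High cells were larger in RNA content, with medians of 9215.5, 6675, and 5399 UMIs per cell against 2326.5, 2290, and 2133, and depth was thus not matched between the groups. The values are CPM without TMM factors. The 8 rule genes together took 294800, 273270, and 268880 CPM in the high cells and 77456, 76017, and 82575 CPM in the low cells. A larger share of some genes lowers the CPM of all others, and its part in the lower values was not tested.

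Most of the secondary granule list was higher in the high cells. Apart from *Camp*, *Ngp*, and *Ltf*, 8 of its 9 members with at least 50 CPM in either group were higher in the high cells of every mouse than in the low cells of any mouse, and none was lower in this way. The haptoglobin gene *Hp* was the member that overlapped, at 1235, 1072, and 1512 CPM against 1367, 1160, and 1136 CPM, and *Pglyrp1* was 1.83-fold higher as a share of pooled UMIs. *Lcn2* was at 14680, 12081, and 13140 CPM in the high cells of mice 2, 3, and 4, and at 458, 369, and 313 CPM in the low cells. *Chil3* was at 3565, 1924, and 2044 CPM against 13.5, 12.6, and 12.04 CPM, so that 302 of the 312 *Chil3* UMIs of neutrophils lay in these cells. Of these UMIs, 83 lay in the cell of mouse 2 marked as a possible doublet. *Cd177* was at 730, 1023, and 916 CPM against 53.9, 42.7, and 4.01 CPM, and *Cybb*, whose pooled level had varied between mice, was at 2891, 1096, and 2215 CPM against 33.7, 97.9, and 72.2 CPM. *Cebpe*, the factor of this stage, was at 505, 390, and 575 CPM against 74.1, 47.7, and 32.1 CPM. For all of these the 2 groups did not overlap. *S100a8*, a rule gene, was at 123840, 102550, and 102580 CPM against 25980, 25553, and 27831 CPM, the lysozyme gene *Lyz2* at 16027, 10230, and 11926 CPM against 1489, 1507, and 1356 CPM, and the annexin gene *Anxa1* at 3649, 3361, and 2960 CPM against 532, 635, and 746 CPM. *Mki67* had no UMI in the high cells, which allows up to 24.3 CPM.

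Most members of the cytokine list were lower in the high cells. Of its 15 members with at least 50 CPM in either group, 12 were lower in the high cells of every mouse than in the low cells of any mouse, none was higher in this way, and *Osm*, *Tgfb1*, and *Tnf* overlapped. *Osm* was at 337, 2241, and 767 CPM in the high cells and at 1340, 947, and 959 CPM in the low cells. *Il1b* was at 365, 219, and 1512 CPM in the high cells and at 18813, 16979, and 19252 CPM in the low cells. *Cxcl2* was at 140, 1023, and 3131 CPM against 18187, 14109, and 13647 CPM. Single cells carried most of these UMIs in the high cells. In mouse 4, 1 cell with 11 summed UMIs of *Camp*, *Ngp*, and *Ltf*, close to the limit of 10, held 62 of 71 *Il1b* and 128 of 147 *Cxcl2* UMIs, and in mouse 3 a cell with 24 summed UMIs held all 9 *Il1b* and 39 of 42 *Cxcl2* UMIs. In mouse 2 a cell with 362 summed UMIs held all 13 and all 5. The other 3, 5, and 7 high cells of mice 2, 3, and 4 had 0, 0, and 9 *Il1b* UMIs and 0, 3, and 19 *Cxcl2* UMIs. *Ccl3* and *Ccl4* had no UMI in the high cells and 729 and 1319 UMIs in the low cells, at least 37.8-fold and 68.3-fold lower against a floor of 3 UMIs over the high cells. *Ptgs2* was at 0, 122, and 234 CPM against 4857, 3920, and 4045 CPM, *Nlrp3* at 84.2, 73.1, and 192 CPM against 1314, 1263, and 1637 CPM, and *Csf3r*, a rule gene, at 112, 219, and 256 CPM against 2236, 2268, and 2131 CPM. *Cxcr4* was at 225, 512, and 85.2 CPM against 990, 964, and 1075 CPM, and *Mcl1* at 309, 463, and 1150 CPM against 3846, 3418, and 3463 CPM. The groups were apart in each of these genes. *Cxcr2*, in contrast, was at 281, 487, and 170 CPM against 445, 550, and 514 CPM, with groups that overlapped, and so did *Mmp9*, at 1572, 3434, and 2449 CPM against 1758, 1469, and 1457 CPM. Within the C/EBP family the 2 factors went opposite ways, with *Cebpb* at 1011, 755, and 873 CPM in the high cells and 7308, 5746, and 5088 CPM in the low cells.

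**Figure D5:**
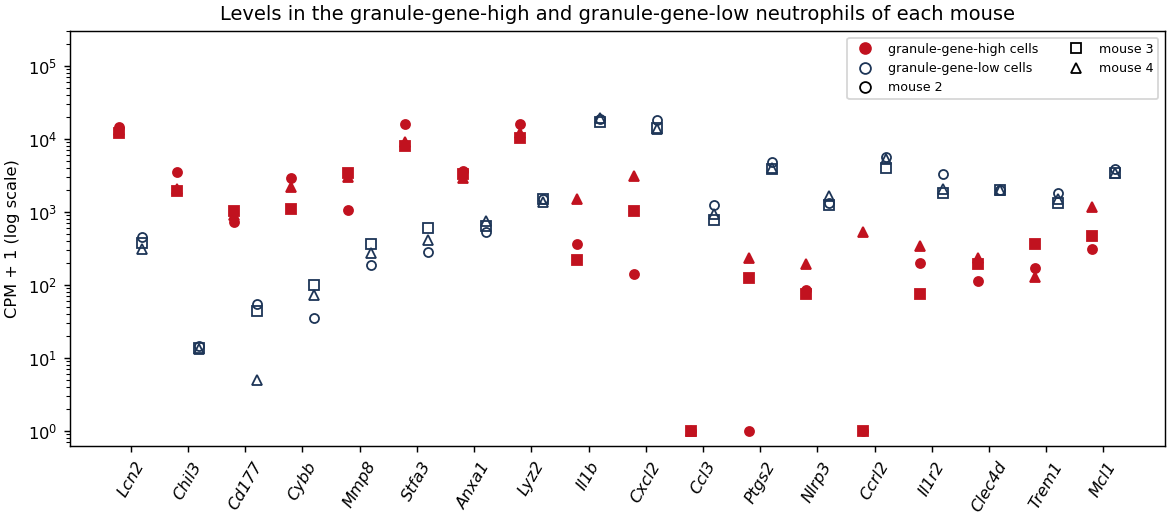
Levels of 18 genes in CPM + 1 (log axis) in the granule-gene-high (filled) and granule-gene-low (open) neutrophils of each mouse, where a point at 1 stands for no UMI and coinciding points hide each other. From *Lcn2* to *Lyz2* the filled symbols lie above the open ones in all 3 mice, and from *Il1b* to *Mcl1* they lie below.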

How the data were processed

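The authors made 10x 3′ v3 libraries, processed them with Cell Ranger 3.0.2 on mm10 (per the labels) and deposited UMI counts, not normalized, for each gene in each droplet called a cell. Whether strand was used in counting is not given in the sources used here. The design text names 5677 cells; the files hold 9644, of which 7642 passed the filter. From the counts, UMIs were summed per mouse and cell set and compared with edgeR 4.0.16 (R 4.3.3; quasi-likelihood test, TMM scaling, the filterByExpr minimum, and Benjamini-Hochberg adjusted p under 0.05). Alternatives were DESeq2 1.42.0, no TMM, no filter on low counts, other cell filters and S100 limits, other compared cells, removal of doublets, a term for the mouse (the replicate block), and each mouse left out in turn. SE is the absolute log2 fold change over the root of the F statistic. The 8 rule genes were not tested, nor was *Csf1r* against the Csf1r+ cells. Levels are CPM of a set's UMIs, and a bound sets a count of 0 to 3 UMIs. Genes without a UMI in 1 set passed the count minimum through the other set alone, so their differences are a description. Thinning took the expected share at 1000 UMIs per cell and left out 12 shallower neutrophils.

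Doublets were scored from simulated doublets (Python 3.11.15, scikit-learn 1.9.0). The highest scores, 0.8% per 1000 cells, were marked (74, 79, and 97 cells, of which 1, 0, and 5 neutrophils) and kept. Sets of 1 mouse come from the same animal, so the numbers pair the sums. Their deviations correlated with r of 0.103, 0.0817, and 0.114 against the other immune cells (5511 genes) and −0.0124, −0.0158, and 0.0918 against the Csf1r+ cells (4540 genes). No library repeated another: chi-square over its degrees of freedom was 38.1, 9.12, and 31.6 for the 3 pairs. The fits were tested on simulated data.

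Genes named are members of fixed lists and, per comparison and direction, the 10 largest log2 fold changes among genes with adjusted p under 0.05, at least 50 CPM in the higher set, and 1 direction in all 3 mice. *Cd3d* and *Col1a1* were followed up after their values had been seen, and the genes given for the granule-gene-high cells were chosen so too. The members and lists were chosen with earlier results of these data known. Positions are GENCODE M21 on GRCm38. A few genes of the lists or named by the rule are not reported here by name, although the counts and medians of their lists include them.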

Additional observations from a re-analysis of the deposited data

Results flagged for a closer look

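Of the 2002 deposited cells that the filter on genes and mitochondrial share left out, 13 met every marker criterion for neutrophils. This is 0.649% of these cells. They were 3, 8, and 2 cells of mice 2, 3, and 4, with a median mitochondrial share of 24.8%. They entered no comparison above, other than the alternative without the filter, and their part in the results was not tested.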

How the results depend on the processing

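For 207 gene results, 2916 values were computed under alternatives, of which 2823 kept their direction and side of the threshold, 66 lost and 4 gained significance, and 23 reversed, with the causes not tested. The 207 do not hold every result named above. The gained calls of *Ly6c2*, *Adgre1*, and *Eln* and the reversals of *Col1a2* and *Col3a1*, given with those genes, are not among them. Leaving out neutrophils with 50 or more stromal UMIs, and leaving out other immune cells with a UMI of *Cdh5*, *Epcam*, or *Col1a2*, were chosen after the data had been seen. Without TMM, 1518 genes were higher and 6120 lower than in the other immune cells, and 930 higher than in the Csf1r+ cells. Leaving out each mouse gave 2157 to 2676 genes lower than in the other immune cells. The mouse as a block gave 2252 higher and 2905 lower genes against the other immune cells and 1426 and 1446 against the Csf1r+ cells. At 500 genes and 10% mitochondrial UMIs, neutrophils were 6.36% of kept and 19.8% of immune cells. The share of immune cells was 9.84% without a filter and 9.50% at 50 or more S100 UMIs, where the median was 2388 UMIs per cell. The ribosomal share was 3.08% without the stromal droplets, and the mitochondrial share 2.496% without a filter.

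Reversed log2 fold changes against the other immune cells were, without TMM, −0.46 for *Cd3d*, −0.17 for *Sdhb*, −0.38 for *Cox4i1*, and −0.29 for *Cflar*. Without *Cd79a*-positive cells they were 0.26 for *Tgfb1*, 0.0034 for *Cd55*, 0.88 for *Serpinb1a*, and −0.68 for *Cd3d*. At 500 genes and 10% they were 0.025 for *Tgfb1*, 0.83 for *Chil3*, and −0.079 for *Cd3d*. *Chil3* was at 0.19 with the mouse as a block, 0.14 at 50 S100 UMIs, and 0.63 without *Cdh5*-, *Epcam*-, or *Col1a2*-positive cells. Leaving out each mouse gave −0.22 to 0.056 for *Chil3* and −0.060 to 0.43 for *Cd3d*, with mouse 4 left out in the reversed cases. For *Col1a1* it gave −0.63 (without mouse 3) to 4.37, and leaving out the stromal droplets −1.50. *Col1a2* and *Col3a1* also reversed without mouse 3 and without the stromal droplets, with the values given above. Against the Csf1r+ cells and without TMM, *Cyba* was at −0.15, *Ltb4r1* at −0.086, *Aldoa* at −0.13, and *Eno1* at −0.11, and leaving out each mouse gave −0.60 to 0.024 for *Cybb*, reversed without mouse 3. *Col3a1* against these cells also reversed without mouse 3, as given above.

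The high and low neutrophils were not tested under any alternative. Wherever mouse 2 was kept, fewer than 5 of its cells were high, and no test was run without mouse 2. With 3 mice, exact tests could not go below p = 0.1, and with 68 to 162 neutrophils per mouse, fold changes of genes near 1 UMI per mouse rest on few counts.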
